A study of Homo sapiens with 20 samples.

Results

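BCL6, PPP3R1, LRRC58, FOXN3, TSPAN3, AC007381.2 and AC109466.1 are 7 of the 36601 genes in a count table from heated MDA-MB-231 cells. They were taken by name, having been picked because their mRNA was lower at a laser temperature of 54 °C or at several temperatures. MDA-MB-231 is an established human breast cancer line without estrogen receptor. Its 20 libraries fall into 5 groups of 4: untreated cells, cells held for 4 h with biomimetic nanoparticles at 0.1 mg/ml and no laser (called nanoparticles alone), and cells given the same nanoparticles and then 10 min of 808 nm laser light held at 46, 50 or 54 °C. Wells were seeded at 30000 cells and grown for 24 h at 37 °C in all groups, and each sample pooled 2 wells. The sequencing read the 3' ends of poly(A) RNA. The labels do not give the time between laser light and lysis. Laser-lit cells free of nanoparticles were not analysed here, and the effects of heat and of light cannot be told apart.

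As background, BCL6 is a transcriptional repressor of the BTB zinc finger family, best known from germinal centre B cells, where it silences target genes through corepressors such as NCOR1 and BCOR. PPP3R1 encodes the regulatory B subunit of calcineurin, the calcium- and calmodulin-dependent phosphatase that sends NFAT factors to the nucleus. FOXN3 is a forkhead repressor linked to cell cycle checkpoints, TSPAN3 is a tetraspanin, a small protein that crosses the membrane several times, and LRRC58 is a protein with leucine-rich repeats. AC007381.2 and AC109466.1 have clone-based names. GENCODE types AC109466.1 as an antisense RNA.

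On GRCh38, BCL6 lies on the minus strand of chromosome 3 from 187721377 to 187745727 and LRRC58 on the same strand from 120324509 to 120349339. PPP3R1 is on the minus strand of chromosome 2 (68178857 to 68256237), FOXN3 on that of chromosome 14 (89124871 to 89619149) and TSPAN3 on that of chromosome 15 (77041404 to 77083984). AC109466.1 spans 874.9 kb of the plus strand of chromosome 5, from 164296696 to 165171643. AC007381.2 was not found in the annotation used here, GENCODE release 29, and is given no position.

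Promoter sequence from RefSeq (GRCh38.p14) was matched for 4 of the 7 genes. The 250 bases before each of the 2 BCL6 starts in that table are shown because BCL6 was lower at 54 °C only, and the PPP3R1 promoter because PPP3R1 was lower at both 50 and 54 °C. The BCL6 and PPP3R1 windows lie inside the GENCODE spans given above, whose outermost transcripts start further upstream. Each is written 5' to 3' on the minus strand, and capitals mark matches to the motifs TTCNNGAA, a unit of the heat shock element, or TTCNNNGAA, the core bound by STAT factors.
BCL6 outer start, chr3:187745469-187745718: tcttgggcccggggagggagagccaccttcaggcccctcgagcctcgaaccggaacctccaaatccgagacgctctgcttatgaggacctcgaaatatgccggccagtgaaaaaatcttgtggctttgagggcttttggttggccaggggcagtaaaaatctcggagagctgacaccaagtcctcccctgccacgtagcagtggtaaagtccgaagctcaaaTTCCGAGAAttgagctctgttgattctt
BCL6 inner start, chr3:187736502-187736751: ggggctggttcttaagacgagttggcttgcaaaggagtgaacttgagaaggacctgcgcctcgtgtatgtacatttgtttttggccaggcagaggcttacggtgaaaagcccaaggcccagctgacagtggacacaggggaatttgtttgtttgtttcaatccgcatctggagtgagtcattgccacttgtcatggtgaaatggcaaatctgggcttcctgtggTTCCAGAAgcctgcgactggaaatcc
PPP3R1, chr2:68252533-68252782: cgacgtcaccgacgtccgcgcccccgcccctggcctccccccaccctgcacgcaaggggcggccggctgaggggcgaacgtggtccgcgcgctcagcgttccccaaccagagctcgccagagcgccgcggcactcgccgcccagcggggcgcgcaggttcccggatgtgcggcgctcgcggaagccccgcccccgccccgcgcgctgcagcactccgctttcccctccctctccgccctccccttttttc

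The outer BCL6 promoter held 1 match to TTCNNNGAA, 28 bases before the start, and the inner one 1 match to TTCNNGAA, 26 bases before the start. Both motifs read the same on either strand, and each was found in 6.6% of the 35116 promoters searched. Neither motif was in the PPP3R1, LRRC58 or FOXN3 windows. The motif GAANNTTC was also searched for and was in no window of the 4 genes, BCL6 included, against 5.8% of all promoters. PPP3R1 had 6 copies of GGGCGG on either strand, a sequence held by 42.6% of promoters, and its window was 76.8% G and C against 54.4% and 50.8% for the BCL6 windows and a median of 58% over all promoters. A match describes these letters and is not a known binding site.

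The libraries held 2401180 to 7710977 counts each, the deepest being those at 54 °C. Markers of the line were high (VIM 1310 to 2140 and CD44 563 to 792 CPM, counts scaled to a common library size). ESR1, PGR and CDH1 had at most 22 counts each over all libraries. ERBB2 and EPCAM, also listed as low or absent in the line, had 754 and 526 counts and reached 16.3 and 21.4 CPM. The B cell markers MS4A1 and CD79A had no count in any library. Some markers of other cells had counts, the most being CD68 (794), COL1A1 (378) and CSF1R (165), at up to 17.6, 7.96 and 8.83 CPM. Levels below are CPM after TMM scaling, and differences are log2 fold changes from edgeR with their standard error (SE). A gene was called when its Benjamini-Hochberg adjusted p over the 12149 tested genes was under 0.05. All 7 genes passed the filter on low counts. The labels do not say that replicates were separate cultures, so the p-values rest on a spread among samples that may be only technical. Because the genes were picked on their falls under heat, their differences from nanoparticles alone are described without a p. Whether such a difference was called is likewise only a description, since the same comparisons chose the genes. Comparisons between temperatures are given with one, but they use the same heated libraries and are not independent support for the choice.

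BCL6 and AC007381.2 were the 2 of the 7 genes lower at 54 °C only. The rule asked for a lower call at 54 °C against nanoparticles alone, against 50 °C and against 46 °C, and for no lower call at 46 or 50 °C against nanoparticles alone. They were also the only genes of the 12149 tested that met it, a share of 0.0165%. As shown further on, their reads are partly shared, so they may not be separate observations. Part of the rule used the comparisons that chose the 7 genes, so meeting it is a description. PPP3R1 and LRRC58 were lower at both 50 and 54 °C, FOXN3 at 46 and 50 °C but not at 54 °C, AC109466.1 was called at 54 °C against nanoparticles alone but not against 50 or 46 °C, and TSPAN3 was called against nanoparticles alone at no temperature.

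**Figure D1:**
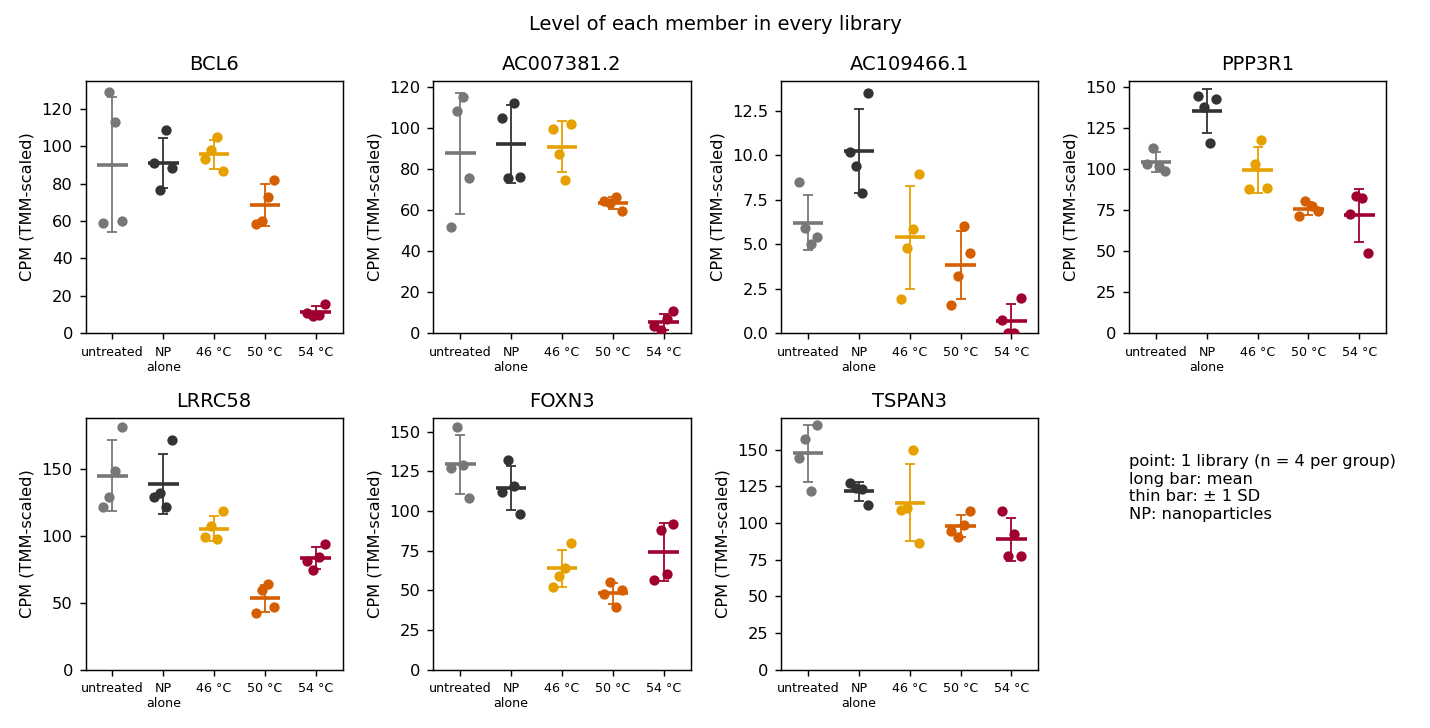
Level of each of the 7 genes (CPM, linear axes from 0) in every library by group; points are libraries, long bars the mean and thin bars 1 SD, n = 4. BCL6 and AC007381.2 lie far below the other groups at 54 °C, LRRC58 and FOXN3 have their lowest mean at 50 °C, and TSPAN3 has a mean of 122 CPM with nanoparticles alone and 88.8 CPM at 54 °C.

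BCL6 stood at 90.9, 76.5, 109 and 88.7 CPM with nanoparticles alone and at 93.5, 98.2, 105 and 86.7 CPM at 46 °C. At 50 °C it had 58.4, 60.3, 73.0 and 82.2 CPM, and at 54 °C 10.5, 9.39, 9.65 and 15.8 CPM. Every 54 °C library lay below every other library of the series, while the 50 °C libraries overlapped those with nanoparticles alone. Untreated cells were the most spread group, at 58.9, 129, 113 and 60.0 CPM, and their mean of 90.2 ± 36.0 (SD, n = 4) lay next to the 91.2 ± 13.2 with nanoparticles alone.

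BCL6 was 8.05-fold lower at 54 °C than with nanoparticles alone (log2 fold change -3.01, SE 0.23), the 28th deepest fall of all tested genes. It was 6.05-fold lower than at 50 °C (-2.60, SE 0.23; edgeR adjusted p = 6.43e-12) and 8.48-fold lower than at 46 °C (-3.08, SE 0.23; adjusted p = 2.99e-15). In both comparisons all 4 libraries at 54 °C were below all 4 of the other group. The step from 46 to 50 °C was -0.49 (SE 0.21; adjusted p = 0.338) and was not called, although those values did not overlap.

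AC007381.2 followed the same course, with 105, 75.5, 112 and 75.9 CPM with nanoparticles alone and 3.64, 1.52, 6.70 and 10.5 CPM at 54 °C. Its values were 99.3, 87.1, 74.8 and 102 CPM at 46 °C and 64.4, 63.5, 66.2 and 59.5 CPM at 50 °C. The 54 °C libraries were again below all others, and in this gene the 50 °C libraries also lay below every library with nanoparticles alone. The difference at 54 °C was -4.07 (SE 0.36) against nanoparticles alone, -3.53 (SE 0.36; edgeR adjusted p = 2.39e-06) against 50 °C and -4.05 (SE 0.36; adjusted p = 1.28e-07) against 46 °C. At 50 °C it was -0.53 (SE 0.31) and not called.

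The estimated counts of BCL6 and AC007381.2 were more than 1e-06 from a whole number in 19 of 20 libraries, and in all 20 the fractions of both genes added up to whole counts within 0.0025. The other 5 genes had whole counts in every library. Salmon divides reads that match more than 1 transcript, so reads were divided between this pair and no other gene completed their fractions. The fractional part was small, at most 0.03 of a count, but a count that Salmon assigned to either gene may also rest on shared sequence, so their separate levels are uncertain. AC007381.2 held 50.0% ± 3.07 (SD, n = 4) of their summed CPM with nanoparticles alone, 48.4% ± 4.72 at 50 °C and 30.2% ± 12.8 at 54 °C.

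Their sum was 178 ± 64.1 CPM in untreated cells and 184 ± 31.1 CPM with nanoparticles alone (SD, n = 4 in each group). Heating to 46 °C gave 187 ± 5.56 CPM, to 50 °C 132 ± 9.90 CPM and to 54 °C 16.9 ± 6.64 CPM. Fitted as 1 gene, which was chosen after seeing the data, the pair was lower at 54 than at 50 °C by a log2 fold change of -2.97 (SE 0.23; edgeR adjusted p = 2.18e-10). Against 46 °C it was -3.47 (SE 0.23; adjusted p = 1.25e-12). At 50 °C against nanoparticles alone the pair stood at -0.47 (SE 0.20), which was not called, although the sums did not overlap. They were 123 to 142 CPM at 50 °C, 152 to 221 CPM with nanoparticles alone and 180 to 193 CPM at 46 °C. Untreated cells spanned 111 to 237 CPM, a range that holds the 50 °C sums. Against them the pair at 50 °C stood at -0.43 (SE 0.21) and was not called. A fall of the pair at 50 °C is therefore neither shown nor excluded. Over the 20 libraries the log2 CPM of both genes correlated at 0.97, a description, since the points share libraries and, in part, reads.

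**Figure D2:**
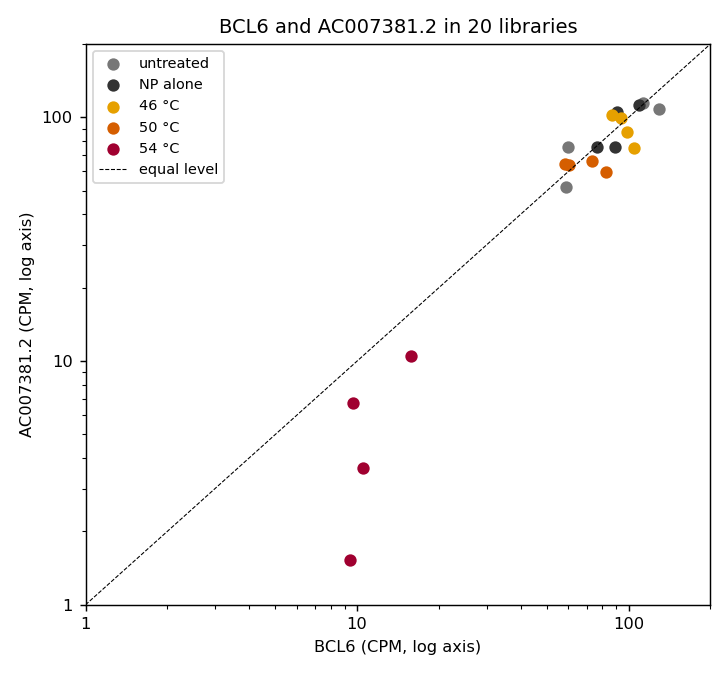
BCL6 against AC007381.2 in each of the 20 libraries (CPM, both axes logarithmic; the dashed line marks equal levels). The 4 libraries at 54 °C lie apart at 9.39 to 15.8 CPM of BCL6 and below the line, with AC007381.2 at 1.52 to 10.5 CPM.

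AC109466.1 was the weakest expressed of the 7 by counts, so its steps are the least certain. With nanoparticles alone it had 10.2, 9.40, 7.86 and 13.5 CPM, at 46 °C 1.92, 4.77, 5.88 and 8.97 CPM, at 50 °C 1.58, 3.23, 6.04 and 4.49 CPM, and at 54 °C 0.727, 0, 0 and 2 CPM. The 4 libraries at 54 °C held 17 counts together, against 160 with nanoparticles alone, and 2 of them held none. The 54 °C libraries lay below every library with nanoparticles alone but overlapped those at 50 and 46 °C.

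The gene was lower at 54 °C than with nanoparticles alone by -3.89 (SE 0.84) on the log2 scale. Against 50 °C the difference was -2.48 (95% interval -4.11 to -0.84; edgeR adjusted p = 0.418) and against 46 °C -2.96 (-4.62 to -1.30; adjusted p = 0.0884), so it did not meet the rule for a fall at 54 °C only. Without 54 °C replicate 4, the library with the most counts of this gene, the difference from 46 °C was -4.31 and passed (adjusted p = 0.00862). The call at 54 °C against nanoparticles alone was lost without any 1 of 54 °C replicates 1, 2 or 3 or nanoparticles-alone replicates 1, 2 or 4.

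PPP3R1, the calcineurin subunit, was highest with nanoparticles alone, at 145, 138, 116 and 143 CPM. It had 103, 113, 102 and 98.7 CPM in untreated cells and 88.1, 103, 118 and 88.7 CPM at 46 °C. At 50 °C it stood at 71.5, 80.4, 77.5 and 74.4 CPM and at 54 °C at 72.7, 83.7, 82.4 and 48.6 CPM. All 50 and 54 °C libraries were below all libraries of the other 3 groups, and the values at 50 and 54 °C overlapped.

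Against nanoparticles alone, PPP3R1 differed by -0.45 (SE 0.16) at 46 °C, which was not called, by -0.84 (SE 0.16) at 50 °C and by -0.92 (SE 0.16) at 54 °C, both called. From 50 to 54 °C the difference was -0.08 (95% interval -0.41 to 0.25; edgeR adjusted p = 0.999). PPP3R1 was the one member whose untreated and nanoparticle values did not overlap, at 0.38 (SE 0.16; adjusted p = 1) higher with nanoparticles alone. Measured from untreated cells the difference at 54 °C shrank to -0.54 (SE 0.16) and at 50 °C to -0.46 (SE 0.17), and neither was called.

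LRRC58 was lowest at 50 °C, with 42.6, 59.8, 63.9 and 47.1 CPM, against 129, 132, 121 and 171 CPM with nanoparticles alone. It stood at 81.4, 74.3, 84.0 and 94.1 CPM at 54 °C, at 99.0, 107, 97.2 and 118 CPM at 46 °C and at 121, 129, 148 and 181 CPM in untreated cells. The ranges at 46, 50 and 54 °C did not overlap one another, with 54 °C in between.

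LRRC58 differed from nanoparticles alone by -0.39 (SE 0.16) at 46 °C, not called, by -1.37 (SE 0.17) at 50 °C and by -0.73 (SE 0.16) at 54 °C, both called. The fall from 46 to 50 °C was -0.98 (SE 0.17; edgeR adjusted p = 1.26e-04). From 50 to 54 °C it stood 0.64 higher (95% interval 0.31 to 0.98; adjusted p = 0.124), a difference that passed with library totals, DESeq2 and a replicate block. The call at 54 °C was lost without any 1 of 54 °C replicates 1, 2 or 3 or nanoparticles-alone replicates 1, 2 or 4, with differences of -0.61 to -0.76, and also without 46 °C replicate 1, which enters through the shared estimate of spread.

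FOXN3 had 112, 132, 116 and 98.3 CPM with nanoparticles alone and 127, 153, 129 and 108 CPM in untreated cells. Its values were 52.2, 58.8, 64.3 and 79.7 CPM at 46 °C, 47.9, 55.1, 39.5 and 50.0 CPM at 50 °C and 56.4, 87.9, 60.3 and 91.6 CPM at 54 °C. All heated libraries lay below all libraries with nanoparticles alone. The 54 °C libraries overlapped those at 46 °C and lay above those at 50 °C.

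FOXN3 was lower by -0.84 (SE 0.18) at 46 °C and by -1.25 (SE 0.18) at 50 °C against nanoparticles alone, both called, and stood at -0.63 (SE 0.18) at 54 °C, which was not. Against untreated cells it was called at all 3 temperatures, at -1.02, -1.42 and -0.80. The 54 °C value was 0.62 above that at 50 °C (95% interval 0.26 to 0.98; edgeR adjusted p = 0.217). FOXN3-AS1, an antisense gene that overlaps FOXN3, was not called at 46, 50 or 54 °C against nanoparticles alone. Whether counting used strand is not stated, so reads of the pair may not be told apart.

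TSPAN3 had the smallest log2 difference of the 7 at 54 °C against nanoparticles alone. It stood at 127, 124, 123 and 112 CPM with nanoparticles alone, at 109, 110, 150 and 86.4 CPM at 46 °C, at 94.7, 90.3, 98.4 and 108 CPM at 50 °C, and at 108, 77.5, 92.7 and 77.2 CPM at 54 °C. Untreated cells had 144, 157, 122 and 167 CPM. The 50 and 54 °C libraries were below all libraries with nanoparticles alone, and the 46 °C libraries overlapped every other group.

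Against nanoparticles alone TSPAN3 differed by -0.09 (SE 0.16) at 46 °C, -0.31 (SE 0.16) at 50 °C and -0.45 (SE 0.16) at 54 °C, and none was called. From untreated cells they were -0.37, -0.59 and -0.73, and those at 50 and 54 °C were called. From 50 to 54 °C TSPAN3 differed by -0.14 (95% interval -0.46 to 0.18; edgeR adjusted p = 0.999).

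**Figure D3:**
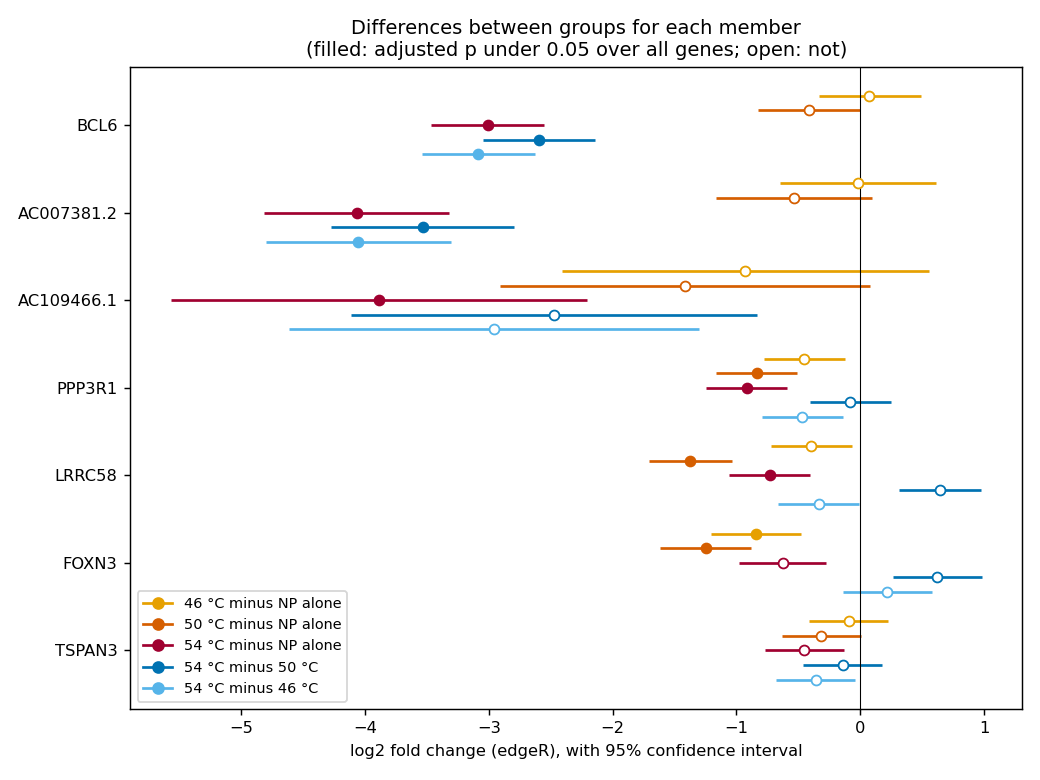
Log2 fold change from edgeR with its 95% confidence interval for each of the 7 genes in 5 comparisons; filled circles were called, open circles were not. Only BCL6 and AC007381.2 have filled circles for 54 °C against nanoparticles alone, 50 °C and 46 °C, at -2.60 to -4.07.

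By count, edgeR called 1 of the 7 lower at 46 °C against nanoparticles alone, where 0.346% of all tested genes were lower and 0.617% higher. At 50 °C it called 3 of 7 lower, with 0.691% of genes lower and 0.527% higher. At 54 °C it called 5 of 7 lower, with 0.0494% lower and 0.0741% higher, so that 5 of the 6 genes called lower were of this set. Nothing is read from these counts, since the same comparisons chose the genes, and without 1 library the 54 °C count was as low as 3.

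Between temperatures, 1 of the 7 was called lower at 50 than at 46 °C (0.609% of genes lower and 0.584% higher), 2 lower at 54 than at 50 °C (0.14% of genes) and 2 lower at 54 than at 46 °C (0.395%). The median of the 7 was -0.14 from 50 to 54 °C and -0.47 from 46 to 54 °C, against a median over all tested genes near 0. Against untreated cells 1, 3 and 5 of the 7 were called lower at 46, 50 and 54 °C, where 0.263%, 0.947% and 0.0412% of genes were. The counts match those against nanoparticles alone but the genes differ: at 54 °C PPP3R1 and AC109466.1 (-3.17, SE 0.82) were not called and FOXN3 and TSPAN3 were, and at 50 °C TSPAN3 took the place of PPP3R1. These share their heated libraries with the comparisons above. With nanoparticles alone against untreated cells, edgeR called 0 of the 7 (0% of genes lower and 0% higher), as did DESeq2 and limma-voom, and 1 of the 7, PPP3R1, had an unadjusted p under 0.05.

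**Figure D4:**
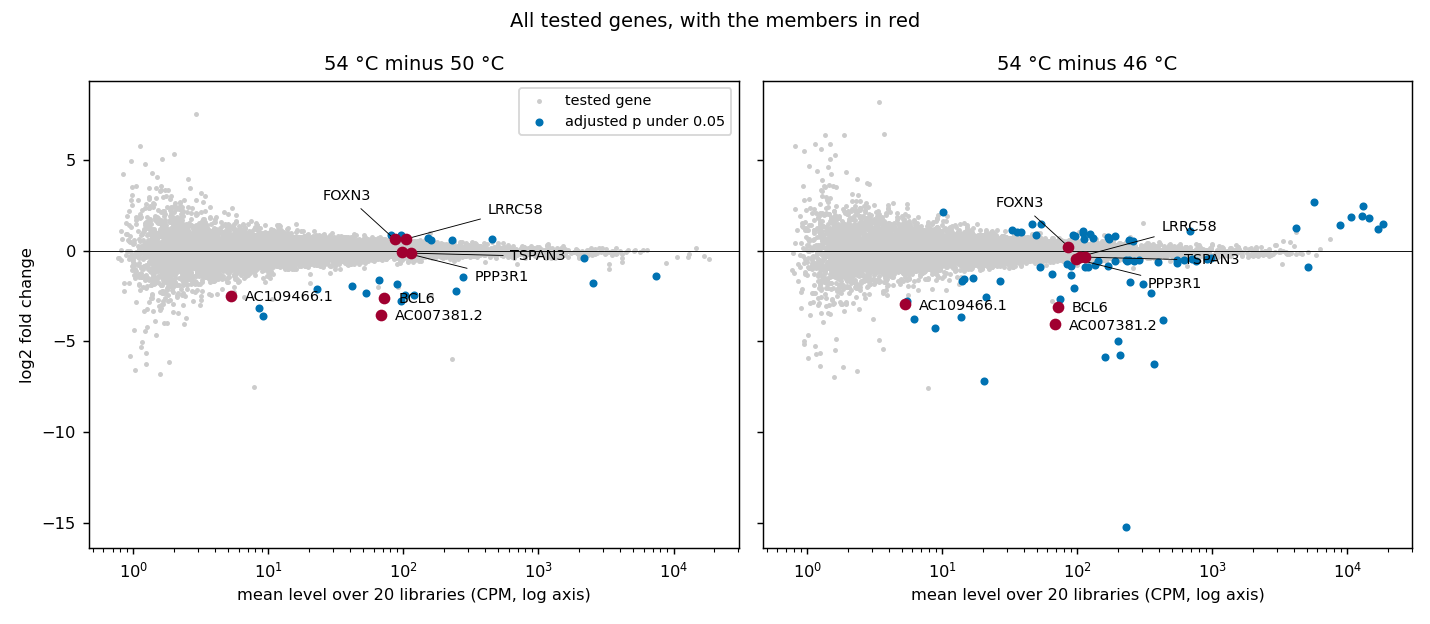
Log2 fold change of all 12149 tested genes against their mean level (CPM, logarithmic axis), for 54 °C against 50 °C and against 46 °C; blue points were called and red points are the 7 genes. In both panels BCL6 and AC007381.2 lie at -2.60 to -4.05 and AC109466.1, not called, at -2.48 and -2.96, while PPP3R1, LRRC58, FOXN3 and TSPAN3 lie between -0.47 and 0.64 with none called.

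The lists of related genes below are small, and with under 1% of all tested genes called in either direction in each of the comparisons with nanoparticles alone (the shares above), a count of 0 in a list is near that background and is no result about the list. Of 23 BCL6 corepressors and related BTB factors, 21 were tested, and at 50 and at 54 °C against nanoparticles alone none was called by edgeR, DESeq2 or limma-voom, with 0 at an unadjusted p under 0.05. NCOR1 stood at 0.10 (SE 0.17) and BCOR at 0.25 (SE 0.33) at 54 °C. ZBTB7A, a BTB repressor, was the one exception over the comparisons, lower at 46 °C by -0.70 (SE 0.14; edgeR adjusted p = 0.00129) and higher by 0.58 at 54 than at 46 °C (SE 0.14; adjusted p = 0.0198).

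Of 18 genes known as BCL6 targets in B cells, 11 were tested, and at 54 °C against nanoparticles alone edgeR called 0, as did DESeq2 and limma-voom, with 3 at an unadjusted p under 0.05. ID2, an inhibitor of helix-loop-helix factors, rose at 46 °C from 10.2 to 62.6 CPM (2.63, SE 0.37; edgeR adjusted p = 2.09e-06), and CDKN1A, the cell cycle inhibitor p21, rose there from 59.2 to 106 CPM (0.83, SE 0.19; adjusted p = 0.0104). ID2 was back at 10.6 CPM at 54 °C, lower than at 46 °C by -2.57 (SE 0.36; adjusted p = 2.22e-06).

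The calcineurin and NFAT list had 21 of 26 genes tested and 0 called by edgeR in any of the 7 comparisons; DESeq2 and limma-voom also called 0. At an unadjusted p under 0.05 there were 6, 3 and 2 at 46, 50 and 54 °C against nanoparticles alone, and scaling by library totals and a replicate block each called 2 lower at 50 °C, the block also 1 higher at 46 °C. The catalytic subunit genes PPP3CA, PPP3CB and PPP3CC stood at 0.03 (SE 0.14), -0.60 (SE 0.23) and -1.17 (SE 0.59) at 54 °C against nanoparticles alone, the last at 4.59 against 10.3 CPM and none called, and RCAN1, a calcineurin regulator, at 0.19 (SE 0.22).

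Among forkhead factors 16 of 25 were tested, and FOXP1 was called lower at 50 °C against nanoparticles alone (-1.14, SE 0.15; edgeR adjusted p = 8.42e-07) and against 46 °C (-0.59, SE 0.15; adjusted p = 0.0289). For 50 against 46 °C limma-voom did not call FOXP1 (-0.6, limma-voom adjusted p = 0.0777). At 50 °C against nanoparticles alone DESeq2 called 2 of the list lower, and library totals and the replicate block each called 3 lower. The list median was -0.52, -0.22 and -0.27 at 46, 50 and 54 °C against nanoparticles alone, where that of all genes was 0.01, 0.02 and 0.01. At 46 and 54 °C the main edgeR fit called 0 of the list, with 4 and 3 at an unadjusted p under 0.05. DESeq2 and the replicate block each called 1 lower at both temperatures, and limma-voom called 1 lower at 54 °C. Of 16 tetraspanins and 26 other leucine-rich repeat genes tested, the main edgeR fit called 0 in any comparison, with at most 2 and 4 at an unadjusted p under 0.05. DESeq2 and the replicate block each called 1 tetraspanin higher at 50 °C against nanoparticles alone, and limma-voom called none of either list. The block also called 1 leucine-rich repeat gene lower at 46 °C, and library totals 1 tetraspanin lower for 50 against 46 °C.

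Some long noncoding RNAs, from a list taken as a sign of RNA quality, moved with the same comparisons, though not all one way. NEAT1 rose from 41.0 CPM with nanoparticles alone to 94.4, 111 and 169 CPM at 46, 50 and 54 °C, and MALAT1 from 1560 to 3330, 3720 and 4180 CPM. All 6 steps were called. At 54 °C they were 2.04 (SE 0.20; edgeR adjusted p = 6.1e-10) and 1.42 (SE 0.23; adjusted p = 0.0223), 2 of 6 in the list, with a list median of 0.28. NORAD fell from 182 to 99.4 CPM at 50 °C against nanoparticles alone (-0.87, SE 0.14; edgeR adjusted p = 5.99e-05) and the list median there was -0.07. From 50 to 54 °C, where BCL6 fell, NORAD was the 1 of the 6 called, partly back at 159 CPM (0.68, SE 0.14; adjusted p = 0.00714). KCNQ1OT1 rose at 46 °C from 14.4 to 62.1 CPM (2.10, SE 0.31; adjusted p = 5.18e-06) and stood at 15.3 and 19.8 CPM at 50 and 54 °C, both called lower than at 46 °C. Their part in the result was not tested. In bulk samples fewer cells with an mRNA and less of it per cell cannot be told apart.

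The nearest tested genes on either side of the 6 genes with a position, and any overlapping one, were called in none of the comparisons of 46, 50 or 54 °C with nanoparticles alone or of 54 with 50 °C. The closest, PNO1, lies 2.6 kb from PPP3R1 and stood at 0.13 at 54 °C against nanoparticles alone. RTP4 and LPP-AS2, 349.3 and 405.5 kb from BCL6, were at 0.82 and 1.96, both near the lowest levels tested.

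By the longest 3' UTR among each gene's coding transcripts, the protein-coding members differed among themselves. BCL6 had 1084 bases with 1 ATTTA, a motif of unstable mRNAs, which is 0.92 per kb. LRRC58 had 6694 bases with 20, FOXN3 6245 with 17 and TSPAN3 5434 with 7, all longer than 93.3% of the 11265 genes with a 3' UTR or more. PPP3R1 had 2109 bases and 4.74 ATTTA per kb, above 90.2% of genes, where the median gene had 1389 bases and 1.72 per kb. Across all genes, which are not independent replicates, 3' UTR length was rank correlated with the fold change against nanoparticles alone. The values were -0.084, -0.167 and -0.071 at 46, 50 and 54 °C. For 54 against 50 °C the sign was the other way, at 0.13. With ATTTA per kb the rank correlations were 0.048, -0.137 and -0.044 at 46, 50 and 54 °C against nanoparticles alone, and 0.114 for 54 against 50 °C.

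The genes most like each member were those with the highest Pearson r of log2 CPM over the 20 libraries, among 8175 genes with a mean of at least 10 CPM. The points share libraries and depth, so r is a description. For BCL6 they included MAPRE2 (0.707) and PTPMT1 (0.701), and for AC007381.2 they were ZBTB18 (0.743), HYOU1 (0.712) and MAPRE2 (0.688). These lay below the 0.97 between BCL6 and AC007381.2. MAPRE2 at 54 °C stood at -0.76 against nanoparticles alone, where BCL6 was at -3.01.

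LRRC58 and FOXN3 correlated at 0.773 with each other, and FOXP1 was close to both, at 0.90 and 0.845. For LRRC58 the others were ANP32B (0.854) and ZFP36L2 (0.847), and for FOXN3 UBXN7 (0.853) and KDELR2 (0.845). The genes most like PPP3R1 included AC092718.4 (0.83) and CNIH1 (0.828), and TSPAN3 was most like CD59 (0.776), CHKA (0.756) and PRPS2 (0.732). Those most like AC109466.1 included PLA2G12A (0.792) and ORC2 (0.717). Among the members, BCL6 and AC007381.2 correlated at 0.842 and 0.837 with AC109466.1, and BCL6 at 0.574 with PPP3R1, 0.56 with TSPAN3, 0.303 with LRRC58 and 0.205 with FOXN3.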

How the data were processed

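The deposited values are estimated counts per gene. Per the submitters' processing notes the authors used STAR and Salmon with GRCh38. Not given in the sources used here: versions, gene annotation, molecular identifiers and strand setting. Non-whole values made up 1.74% to 2.9% of each library and were rounded for testing. Every table column was mapped to a sample. The filter (filterByExpr of edgeR, count 10, total 15) kept 12149 genes with at least 99.67% of each library's counts. edgeR 4.0.16 in R 4.3.3 fitted 5 group means over 20 libraries (robust quasi-likelihood, TMM, Benjamini-Hochberg), checked on simulated counts. Log2 CPM used a prior count of 2. Library totals ran from 2401180 to 7710977; reads copied by PCR are not independent, so depth bounds counting error only. Replicates correlated at 0.891 to 0.942 across genes and had a chi-square per gene of 7.78 to 23.5 between their counts, so none was taken as a duplicate. In all 5 groups the chi-square was lowest for replicates 1 with 2 and 3 with 4. At 50 °C these were 8.46 and 8.59, against 11.9 to 14.8 for the other pairs. The gap was narrow at 54 °C (3 with 4 at 15.9, 1 with 3 at 16.2). By correlation the split was clear in no group, although 1 with 2 was the highest pair in each group but 46 °C. In untreated cells 3 with 4 was at 0.896 and 1 with 4 at 0.906, and with nanoparticles alone they were at 0.906 and 0.921. At 54 °C 3 with 4 was at 0.906 and 2 with 3 at 0.929. At 46 °C 1 with 2 was at 0.903 and 1 with 4 at 0.91. At 50 °C 3 with 4 and 2 with 3 were both at 0.915. The main fit has no term for this split, whose cause was not tested. Positions and 3' UTRs are from GENCODE release 29, which the authors may not have used.

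The 7 members and the gene lists were chosen with earlier results of these data known. Named genes are the members, the 3 genes most like each, overlapping and nearest tested genes, and from each list those called (up to 3 by p). A few further list genes (NCOR1, BCOR, PPP3CA, PPP3CB, RCAN1) were named for their known role. The results of a few genes are left out here. Alternatives were DESeq2 1.42.0, limma-voom (limma 3.58.1), library totals, no filter, only the 2 groups compared, a replicate block, replicate subsets, each library left out and untreated cells as reference.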

Additional observations from a re-analysis of the deposited data

Results flagged for a closer look

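BCL6 in 54 °C replicate 4 stood at 15.8 CPM, apart from the other 3 libraries of its group at 9.39 to 10.5 CPM. The gap was 0.831 of the group's range, just above Dixon's 95% critical value for 4 samples. Of the 35 groups of 4 values examined (7 genes in 5 groups) this was the 1 that passed, and chance marks about 1 in 20. Without that library BCL6 remained called lower at 54 °C against nanoparticles alone, 50 °C and 46 °C.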

How the results depend on the processing

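Across 29 alternatives, 546 of the 578 member comparisons kept their side of the threshold, 23 lost a call and 9 gained one. The sign changed in 16, in 5 results of at most 0.141 in size (BCL6, TSPAN3 and AC007381.2 at 46 °C against nanoparticles alone, PPP3R1 and TSPAN3 for 54 against 50 °C), none called either way. BCL6 and AC007381.2 stayed the 2 members lower at 54 °C only under all 29 of them. The members lower at 54 °C than with nanoparticles alone numbered 5, but 3 within replicates 1 and 2, 2 within replicates 3 and 4, and 3 to 5 with 1 library left out. At 46 °C the count of 1 became 0 within replicates 3 and 4, where FOXN3 stood at -0.57. Between 50 and 46 °C the count of 1 became 2 with library totals (PPP3R1 added). The count lower at 54 than at 46 °C was 2 to 3 with 1 library left out, and the others did not move: 1 at 46 °C, 3 at 50 °C, 2 for 54 against 50 °C, 1 for 50 against 46 °C, 0 for nanoparticles against untreated cells and 2 for 54 °C only. Within replicates 3 and 4 PPP3R1 lost its calls, at -0.78 and -0.98. AC109466.1 lost its 54 °C call with only the 2 groups (-3.90). The cause was not tested.

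Same-numbered libraries deviated together weakly (40 correlations, all positive, 0.022 to 0.066, against a median of -0.032 for other numbers). Of 20 libraries 9 were closest to their own number. The main fit leaves the number out. With the number as a replicate block the members called lower at 54 °C were 6, FOXN3 added at -0.64, AC109466.1 was also called against 46 °C (-3.13), and LRRC58 was called higher at 54 than at 50 °C (0.64).

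Counts over all genes moved more. Lower and higher calls at 46 °C against nanoparticles alone were 42 and 75, with DESeq2 77 and 115, with the block 108 and 161, and within replicates 3 and 4 19 and 45 (replicates 1 and 2: 114 and 147). At 50 °C they were 84 and 64, with DESeq2 148 and 140, with the block 181 and 152, within replicates 3 and 4 21 and 40, with library totals 227 lower, with no filter 97 higher and with only the 2 groups 104 higher. At 54 °C they were 6 and 9, with DESeq2 11 and 25, with no filter 12 and 26, with the block 19 and 27, and within replicates 3 and 4 16 higher. For 50 against 46 °C they were 74 and 71, with DESeq2 150 and 127, with the block 179 and 174, with library totals 374 and 46, and within replicates 3 and 4 35 and 40 (replicates 1 and 2: 126 higher). For 54 against 50 °C the 17 lower became 29 with DESeq2, 28 with limma-voom, 36 with the block and 27 with only the 2 groups. For 54 against 46 °C the 48 lower became 81 with library totals, 76 with DESeq2, 90 with the block, and 133 and 28 within the replicate subsets. For nanoparticles against untreated cells 0 and 0 became 1 and 1 with no filter, 1 and 1 within replicates 3 and 4, and 4 higher within replicates 1 and 2. With 1 library left out the lower calls were 26 to 51 at 46 °C, 33 to 69 at 50 °C and 3 to 6 at 54 °C. Library totals moved the median of all genes by -0.12 at 50 °C against nanoparticles alone and by -0.17 for 50 against 46 °C, and the higher share of calls from 64.1% to 74.2%, 43.2% to 18.1%, 49% to 11%, 29.2% to 57.9% and 37.7% to 20.6% (46 and 50 °C against nanoparticles alone, 50 against 46, 54 against 50 and 54 against 46 °C). Low counts limit AC109466.1.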
